A study of Mus musculus with 10 samples.

Results

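This section describes 10 genes through which macrophages take up, store and export lipid, in YUMMER1.7 melanomas grown in Siah2 knockout or WT mice. Lpl, Cd36, Fabp4 and Plin2 serve uptake and storage, Pparg and Nr1h3 encode nuclear receptors that sense lipids, and Abcg1, Abca1, Apoe and Mylip serve cholesterol export or limit uptake. The genes were picked by symbol, with earlier results of these data known. All 10 of 10 had a value above 0 in every tumor, among 24421 genes listed and 12926 measured. Of the 10, 6 were higher in KO-labelled tumors, 2 were lower and 2 did not pass the test, while of all measured genes 17.5% were higher and 18.2% lower.

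RNA sequencing was done on 10 whole tumors, 5 from Siah2 KO mice and 5 from WT mice. Each mouse received 100000 YUMMER1.7 cells under the skin of the flank and the tumor was taken after 10 days. YUMMER1.7 is a Braf-mutant mouse melanoma line that carries many somatic mutations, and it was the same in both groups, so that the groups differ by the genotype of the host. The labels give the strain as C57Bl6 for the first sample and raise its number by 1 with each sample up to C57Bl15, and they give no age. The paper gives all of its mice the same genetic background, so the rising number is not read as a change of strain. The tumors are separate samples, but the labels tie none of them to a litter, a cage or a processing day. Siah2 itself, the gene for a RING ubiquitin ligase, was not lower in the knockout group. It was 573, 739, 747, 490 and 610 in the tumors labelled Siah2 KO and 391, 428, 407, 393 and 408 in the WT tumors, as normalized read counts (1.54-fold higher, limma adjusted p = 0.00104). One value for the whole gene does not tell transcripts with the deletion from those without it. Nor does it tell RNA of the host from RNA of the injected cells, which do not have the genotype of the host. So this is not a test of the knockout. The group is therefore called KO-labelled, and each direction rests on the labels.

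The values are read counts normalized between libraries by the authors and rounded to whole numbers, called scores here. Their totals were 15605574 to 16503134 in KO-labelled tumors and 15414758 to 15527530 in WT tumors. The median measured gene had a mean score of 553.2. The table lists 11495 genes at 0 in every tumor, and as genes that all cells use, such as Rpl26 and Rpl30, are among them, a gene listed at 0 may still be expressed. The melanocyte markers Mlana, Pmel and Tyr are listed at 0 in this way, so the melanoma cells could not be checked against them, whereas all 14 macrophage markers examined were measured. Each difference below comes from limma on log2(score + 1), with p-values adjusted over all 12926 measured genes and a threshold of 0.05. By this test 35.6% of all measured genes differed. In 24.8% of genes the groups did not overlap, with every KO-labelled tumor above every WT tumor in 11.9% and below in 12.9%. The counts over the 10 genes are to be read against these shares.

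Lipoprotein lipase, encoded by Lpl, splits the triglycerides of lipoproteins at the cell surface, CD36 binds fatty acids and oxidized lipoprotein, FABP4 carries fatty acids in the cytosol, and perilipin 2, encoded by Plin2, coats lipid droplets. PPAR gamma (Pparg) is a receptor for fatty acids and their derivatives and a known activator of Cd36, Fabp4 and Plin2. LXR alpha (Nr1h3) is a receptor for oxysterols and a known activator of Abca1, Abcg1, Mylip, Apoe and Lpl. ABCA1 and ABCG1 export cholesterol to apolipoproteins and to HDL particles, apolipoprotein E accepts and carries it, and MYLIP, also called IDOL, is a ubiquitin ligase that limits lipoprotein uptake. Both receptors bind DNA together with RXR. Macrophages that load lipid in this way are known as foam cells, and tumor macrophages are known to hold lipid droplets too. The genes are not confined to macrophages. Adipocytes, capillary endothelium and muscle each express at least some of Lpl, Cd36 and Fabp4, and many cell types express Plin2, Apoe, Mylip and Abca1.

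LXR with RXR binds a DR4, a direct repeat of nuclear receptor half-sites 4 bases apart, and a common form of the half-site is AGGTCA. RefSeq promoter windows (GRCm38.p6, 250 bases before to 50 after a start) were at hand for 7 of the 10 genes, Abca1, Nr1h3, Mylip, Apoe, Cd36, Plin2 and Pparg, in 12 windows. They were searched on both strands for a DR4 pattern that allows several letters in its half-sites and for AGGTCA. Among these genes a DR4 was found in Abca1, from 67 to 52 bases before the start (chr4:53159947-53159962), and this element is a textbook LXR site. Srebf1, an LXR target outside the 10 genes, has one before 1 of its 3 listed starts (chr11:60210638-60210653). Of all 32851 windows, 0.432% hold a DR4, and 0.0152% hold AGGTCA repeated exactly, with 4 bases between. The half-site AGGTCA was found in Cd36, Plin2 and Pparg, and 16.3% of all windows hold it. No window of Nr1h3, Mylip or Apoe held either. The E-box CACGTG (7.15% of all windows) was found in Abca1 and Plin2, and TATAAA (13.6%) in Abca1, Mylip, Apoe and Pparg, also on both strands. Windows with a DR4 or AGGTCA follow, without another window of Pparg that also holds AGGTCA. Each is given as the 250 bases up to the start, written 5′ to 3′ on the strand of the gene, since the results for these genes can be set beside a match. Capitals mark the DR4 in Abca1 and Srebf1 and the half-site in the other genes (TGACCT is AGGTCA read on the opposite strand). No DR4 shown holds AGGTCA, so the marked matches do not overlap.
Abca1, chr4:53159896-53160145, minus strand: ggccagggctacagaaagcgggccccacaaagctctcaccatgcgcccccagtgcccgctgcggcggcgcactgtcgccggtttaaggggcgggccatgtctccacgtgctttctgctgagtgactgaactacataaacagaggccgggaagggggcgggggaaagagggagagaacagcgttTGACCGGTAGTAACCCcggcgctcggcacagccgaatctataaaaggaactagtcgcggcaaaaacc
Srebf1, chr11:60210472-60210721, minus strand: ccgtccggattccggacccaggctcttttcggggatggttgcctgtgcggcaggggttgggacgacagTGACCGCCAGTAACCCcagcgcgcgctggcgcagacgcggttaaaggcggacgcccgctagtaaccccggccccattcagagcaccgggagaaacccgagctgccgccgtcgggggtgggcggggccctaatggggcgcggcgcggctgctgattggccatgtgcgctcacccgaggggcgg
Cd36, chr5:17835897-17836146, minus strand: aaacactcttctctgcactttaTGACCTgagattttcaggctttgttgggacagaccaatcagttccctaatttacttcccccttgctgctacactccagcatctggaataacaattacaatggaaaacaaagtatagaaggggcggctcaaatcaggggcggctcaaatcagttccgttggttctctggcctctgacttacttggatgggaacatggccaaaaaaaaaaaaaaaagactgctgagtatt
Plin2, chr4:86670060-86670309, minus strand: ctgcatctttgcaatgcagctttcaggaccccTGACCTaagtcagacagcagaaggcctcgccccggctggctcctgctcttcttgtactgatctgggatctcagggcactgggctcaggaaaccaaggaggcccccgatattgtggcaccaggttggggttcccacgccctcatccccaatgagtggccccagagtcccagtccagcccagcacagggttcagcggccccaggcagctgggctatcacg
Pparg, chr6:115360894-115361143, plus strand: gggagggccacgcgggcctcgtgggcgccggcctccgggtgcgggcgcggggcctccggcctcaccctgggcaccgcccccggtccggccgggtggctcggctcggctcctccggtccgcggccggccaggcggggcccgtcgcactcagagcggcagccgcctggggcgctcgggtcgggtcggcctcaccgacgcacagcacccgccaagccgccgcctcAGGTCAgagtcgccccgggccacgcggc

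Of the 4 genes of lipid uptake and storage 3 were higher in KO-labelled tumors, with Lpl 2.87-fold, Cd36 2.33-fold and Plin2 2.13-fold higher, while Fabp4 did not pass. Plin2 (mm10 chromosome 4, 86648386 to 86670060, minus strand) had the smallest p of the 10 genes. Its score was 3882, 4947, 5421, 5389 and 3667 in KO-labelled tumors and 2403, 1906, 1906, 2266 and 2345 in WT tumors. Every KO-labelled tumor lay above every WT tumor (log2 difference 1.09 ± 0.12 SE, limma adjusted p = 3.92e-05). The highest tumor was 1.48 times the lowest in KO-labelled tumors and 1.26 times in WT tumors.

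Lpl (chromosome 8, 68880491 to 68907448, plus strand) had scores of 304, 423, 467, 755 and 426 in KO-labelled tumors and 152, 97, 148, 227 and 195 in WT tumors. The groups did not overlap, although both were wide, and column KO4 stood well above the other KO-labelled tumors. The log2 difference was 1.52 ± 0.24 SE (limma adjusted p = 0.000478), and without column KO4 it was 1.34. Cd36 (chromosome 5, 17781690 to 17888801, minus strand) was 284, 285, 548, 700 and 273 in KO-labelled tumors and 179, 127, 169, 188 and 168 in WT tumors. Here the KO-labelled tumors were uneven, with Siah2 KO replicate 3 and column KO4 far above the other 3, yet the lowest of them was still above the highest WT tumor (log2 difference 1.22 ± 0.25 SE, limma adjusted p = 0.00228).

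Fabp4 (chromosome 3, 10204088 to 10208576, minus strand) was 590, 1404, 707, 715 and 780 in KO-labelled tumors and 871, 387, 438, 590 and 497 in WT tumors. The groups overlapped, since WT replicate 2 was above 4 of the 5 KO-labelled tumors, and the high KO-labelled value was that of Siah2 KO replicate 2 alone. The log2 difference was 0.58, with a 95% interval of 0.06 to 1.10, and did not pass (limma adjusted p = 0.0754, exact permutation p = 0.0952, two-sided). It passed without WT replicate 2 (log2 difference 0.76, limma adjusted p = 0.0211) and without Siah2 KO replicate 1 (0.69, adjusted p = 0.0414), and it was 0.38 without Siah2 KO replicate 2. The call of Fabp4 thus turns on single tumors. Its close relative Fabp5, a fatty acid carrier of macrophages and epithelia, is a gene of the wider pathway given below.

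**Figure D1:**
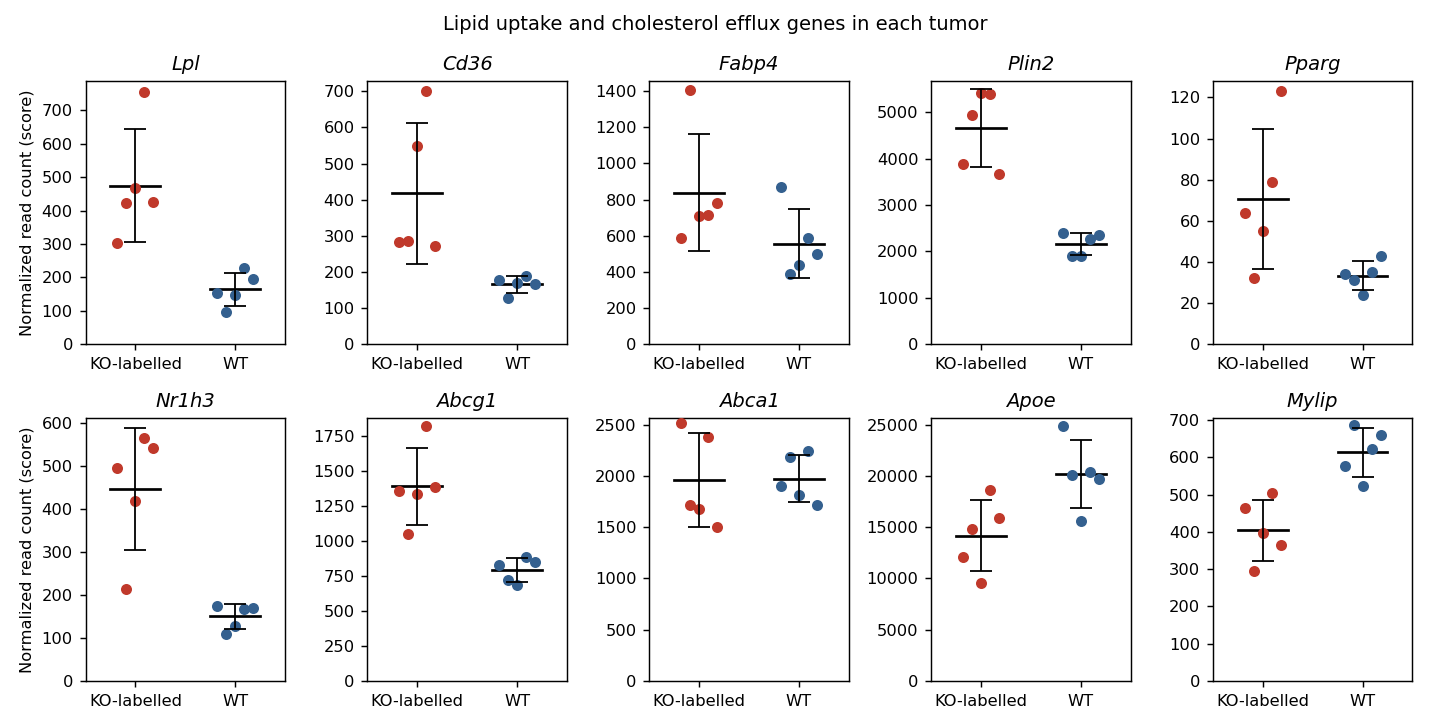
Score (normalized read count, vertical axis from 0) of each of the 10 genes in each tumor, one panel a gene, with KO-labelled tumors in red at left, WT tumors in blue at right, a black line at the mean and bars of 1 SD (n = 5 each). Lpl, Cd36, Plin2, Nr1h3 and Abcg1 lie higher in every KO-labelled tumor than in any WT tumor, Mylip lies lower, and the groups overlap in Fabp4, Pparg, Abca1 and Apoe.

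Both receptor genes were higher in KO-labelled tumors. Nr1h3 (chromosome 2, 91184061 to 91202834, minus strand) was 496, 213, 419, 565 and 542 in KO-labelled tumors and 175, 110, 129, 167 and 170 in WT tumors. Siah2 KO replicate 2 was close to the WT tumors and the other 4 were over 2-fold above each of them, and the mean log2 difference was 1.51 ± 0.24 SE (2.85-fold, limma adjusted p = 0.000447). Exons of Nr1h3 share 34 bases with those of the predicted gene Gm13783 on the same strand, or 1.35% of its exon length, and no exon of the other 9 genes overlaps that of another gene. Pparg (chromosome 6, 115360951 to 115490399, plus strand) had low scores throughout, with 64, 32, 55, 79 and 123 in KO-labelled tumors and 34, 31, 24, 35 and 43 in WT tumors. Siah2 KO replicate 2 again lay among the WT tumors, and the highest value was that of column KO5. The log2 difference of Pparg was 0.95 ± 0.30 SE (1.93-fold, limma adjusted p = 0.0246), and the adjusted p crossed the threshold with any of 3 single tumors left out, while the difference stayed close to its value. It did not pass without WT replicate 3 (log2 difference 0.93, limma adjusted p = 0.0512), WT replicate 4 (0.84, adjusted p = 0.0633) or column KO4 (0.88, adjusted p = 0.0544), and with columns KO4 and KO5 both left out it was 0.54 (limma adjusted p = 0.130).

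The 4 genes of cholesterol export and limited uptake did not move together. Abcg1 was 1.73-fold higher in KO-labelled tumors, Abca1 did not pass, Apoe was 1.44-fold lower and Mylip 1.53-fold lower. Abcg1 (chromosome 17, 31057675 to 31117988, plus strand) was 1356, 1051, 1335, 1823 and 1384 in KO-labelled tumors and 831, 723, 684, 885 and 849 in WT tumors, so that the groups were apart (log2 difference 0.79 ± 0.13 SE, limma adjusted p = 0.000485). Abca1 (chromosome 4, 53030787 to 53159895, minus strand), whose promoter holds the DR4 shown above, was 2518, 1713, 1674, 2379 and 1501 in KO-labelled tumors and 1906, 2189, 1818, 2241 and 1717 in WT tumors. The KO-labelled tumors spanned the whole WT range and beyond it on both sides. The log2 difference of Abca1 was -0.04, with a 95% interval of -0.34 to 0.27 (limma adjusted p = 0.864), an interval that holds changes of up to 1.21-fold higher and that excludes the difference seen in Abcg1. The ratio of Abcg1 to Abca1 within a tumor, compared after their values were seen, does not depend on scaling between tumors. It was 0.539, 0.614, 0.797, 0.766 and 0.922 in KO-labelled tumors and 0.436, 0.330, 0.376, 0.395 and 0.494 in WT tumors. The groups did not overlap in this ratio (log2 difference 0.83), which is given with no test, as the pair was chosen for its values.

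Mylip (chromosome 13, 45389742 to 45412022, plus strand) was 463, 296, 396, 504 and 365 in KO-labelled tumors and 576, 687, 523, 622 and 659 in WT tumors. Each KO-labelled tumor lay below each WT tumor, and the nearest tumors of the groups, column KO4 and WT replicate 4, were close (log2 difference -0.62 ± 0.13 SE, limma adjusted p = 0.0036). Apoe (chromosome 7, 19696109 to 19699188, minus strand) had high scores throughout, with 12049, 14817, 9539, 18581 and 15880 in KO-labelled tumors and 24912, 20135, 15566, 20375 and 19742 in WT tumors. WT replicate 4 lay below column KO4 and column KO5, and the other 4 WT tumors were above all KO-labelled tumors (log2 difference -0.53 ± 0.17 SE, limma adjusted p = 0.0269). The call of Apoe was lost when any 1 of 6 tumors was left out, namely WT replicates 2, 3, 5 or 6 or Siah2 KO replicates 1 or 3, with adjusted p from 0.0504 to 0.0717 and a log2 difference of -0.53 to -0.40.

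The SD was larger in KO-labelled than in WT tumors in all 10 genes. The median SD on the log2 scale was 0.42 in KO-labelled and 0.23 in WT tumors over the 10 genes, against 0.22 and 0.11 over all measured genes, of which 82.9% varied more in KO-labelled tumors. Column KO4 had the highest score of its group in 6 of the 10 genes, among them Lpl, Cd36, Nr1h3 and Abcg1, and Siah2 KO replicate 2 had the lowest in 4, among them Nr1h3, Pparg and Abcg1. Averaged over the 6 genes that were higher, column KO4 stood 1.67 above the WT mean on the log2 scale and Siah2 KO replicate 2 stood 0.72 above it. Replicate 2 was not low in all of them, as it was above replicate 1 in Lpl and Plin2. Among WT tumors, replicate 3 had the lowest score in 5 of the 10 genes, in Plin2 tied with replicate 4 at 1906. Replicate 4 alone had the lowest score in 4 other genes. Profiles over the 10 tumors were compared for all 45 pairs of genes by the root mean square difference of log2 values centred on the WT mean. The closest pairs were Abcg1 with Plin2 (0.32) and Cd36 with Plin2 (0.32), and the most distant were Mylip with Lpl (1.58) and Mylip with Nr1h3 (1.54), a description with no test.

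**Figure D2:**
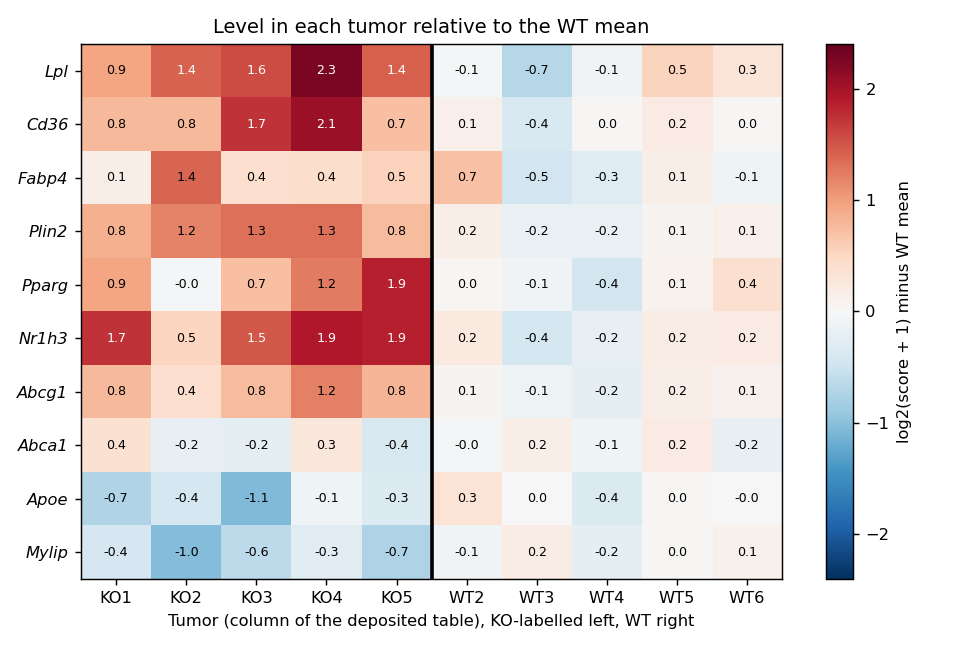
Level of each gene (rows) in each tumor (columns, named as in the deposited table, KO-labelled left of the black line and WT right of it) as log2(score + 1) minus the WT mean of the gene, with red for higher and blue for lower. The 6 genes from Lpl to Abcg1 other than Fabp4 are reddest in column KO4 or KO5 or Siah2 KO replicate 3, Pparg in Siah2 KO replicate 2 is at the WT level, and Apoe and Mylip are below the WT mean in all 5 KO-labelled tumors.

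As whole tumors were sequenced, fewer cells of a type and less RNA per cell cannot be told apart. Like 6 of the 10 genes, and unlike Apoe and Mylip, most macrophage markers were higher in KO-labelled tumors. Of 14, 11 were higher in KO-labelled tumors and 0 lower (0 at an unadjusted p under 0.05 in limma), with a median log2 difference of 0.65 against -0.0006 over all measured genes, and their summed score was 69533 to 116700 in KO-labelled tumors and 54983 to 68570 in WT tumors. Among those with the smallest p were the Fc receptor chain Fcer1g (1.97-fold higher) and the integrin Itgam (1.49-fold). The markers that did not pass were named after their values were seen. They are Csf1r, the CSF1 receptor (log2 difference -0.08), Adgre1, which encodes F4/80 (0.25), and lysozyme, Lyz2 (0.19). Column KO4 had the highest summed macrophage score as well.

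When each tumor was scaled by the mean log2 level of the 14 macrophage markers, the median of all measured genes stood at -0.59, and relative to that median the differences are those already given. Relative to the markers, Lpl was 1.92-fold higher (limma adjusted p = 0.000924), Nr1h3 1.90-fold (adjusted p = 0.00123), Cd36 1.55-fold (adjusted p = 0.00653) and Plin2 1.42-fold higher (adjusted p = 0.00777) in KO-labelled tumors. The calls of Abcg1 (log2 difference 0.21, limma adjusted p = 0.189) and Pparg (0.36, adjusted p = 0.238) were lost on this scale, and Fabp4 was at -0.003. Abca1 was 1.54-fold lower relative to the markers (limma adjusted p = 0.0041), Apoe 2.16-fold lower (adjusted p = 0.000115) and Mylip 2.30-fold lower (adjusted p = 6.23e-06). On this scale 9459 of all 12926 measured genes were called, and Abca1, at a log2 difference of -0.62, stood close to the median of all measured genes. As Csf1r, Adgre1 and Lyz2 moved less than the other markers, these values depend on the choice of markers.

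**Figure D3:**
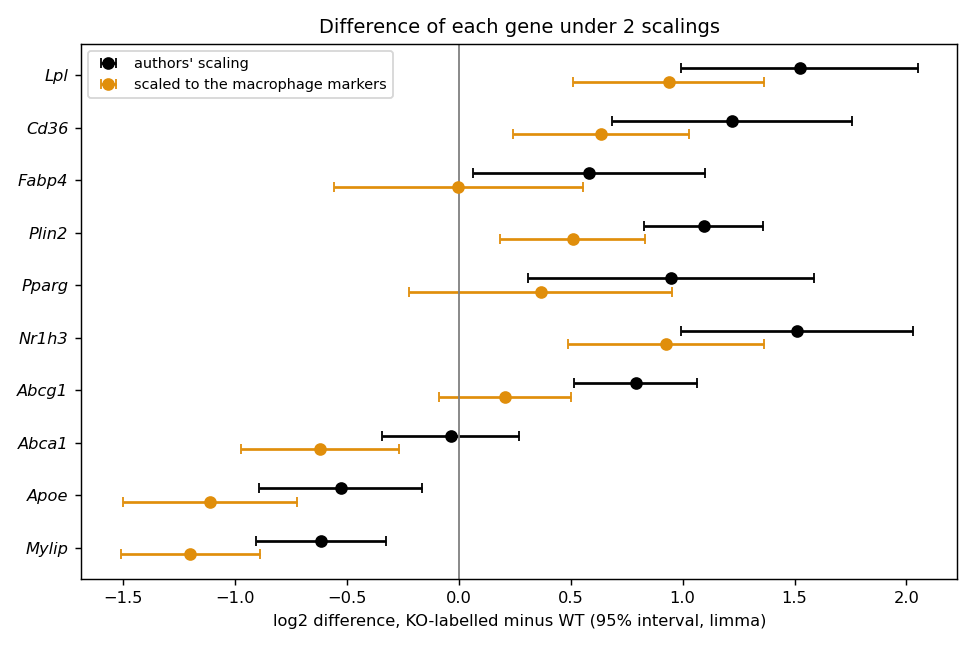
Log2 difference of each gene, KO-labelled minus WT (horizontal axis), with its 95% interval from limma, with the authors' scaling in black and after scaling each tumor to the mean of 14 macrophage markers in orange. Lpl, Cd36, Plin2 and Nr1h3 stay right of 0 on both scales, and Apoe and Mylip stay left of it. Abca1 is at -0.04 on the first and at -0.62 on the second, where the median of all measured genes is at -0.59.

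As stated above, adipocytes, capillary endothelium and muscle also express at least some of Lpl, Cd36 and Fabp4. Of 13 adipocyte markers, 9 are listed at 0 in all tumors, among them Adipoq, Plin1 and Lep, and 0 of the other 4 passed in limma (0 also at an unadjusted p under 0.05), where Lipe had a log2 difference of 0.09, Plin4 of 0.58 and Cfd of 0.19. Their summed score was 547 to 941 in KO-labelled tumors and 489 to 962 in WT tumors. Of 10 skeletal muscle markers 0 passed in limma (0 also at an unadjusted p under 0.05), with sums of 2932 to 6054 in KO-labelled and 1901 to 5735 in WT tumors, and the smallest p were those of Mb (log2 difference 0.48), Tnnc2 (0.51) and Mylpf (0.31). Of 13 endothelial markers, 2 were higher and 5 lower, with sums of 14143 to 19723 in KO-labelled and 25068 to 29520 in WT tumors. Aqp1 was 1.89-fold lower, Pecam1, which leukocytes also express, 1.60-fold higher and Vwf 1.78-fold lower. Aqp1 makes up most of these sums, with a mean of 9739.6 in KO-labelled and 18306.8 in WT tumors. The mean log2 level of the 13 endothelial markers overlapped, at 8.18 to 8.51 in KO-labelled and 8.35 to 8.57 in WT tumors.

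Markers of other cell types differed as well. Of 8 fibroblast markers, 6 were lower and 2 higher, with Fap 4.23-fold, Pdgfrb 2.56-fold and Col1a2 1.74-fold lower. The 2 higher were Dcn (1.64-fold) and Thy1 (1.88-fold), named after their values were seen. The sums were 45351 to 58271 in KO-labelled and 79328 to 87280 in WT tumors. Col1a2 makes up most of them, with a mean of 34347.8 in KO-labelled and 59484.2 in WT tumors. Of 7 dendritic cell markers, 5 were lower, among them Fscn1 (1.49-fold), Flt3 (1.73-fold) and Cd209a (3.56-fold). Xcr1 (log2 difference 0.23) and Clec9a (0.26), named after their values were seen, did not pass. The sums were 3188 to 3964 in KO-labelled and 5036 to 5511 in WT tumors. Fscn1 makes up most of them, with a mean of 3039.8 in KO-labelled and 4522.4 in WT tumors. Of 7 neutrophil markers, 3 are listed at 0 (Cxcr2, Retnlg and Ly6g), and Csf3r (1.78-fold) and Mmp8 (3.98-fold) were higher while S100a9 did not pass (log2 difference 0.75). The scores of Mmp8 were low and overlapped, at 12 to 80 in KO-labelled and 7 to 16 in WT tumors. The 4 neutrophil markers measured summed to 657 to 1110 in KO-labelled and 381 to 532 in WT tumors. Of 12 melanoma and melanocyte markers 3 were measured (sums of 318 to 446 in KO-labelled and 463 to 685 in WT tumors), with S100b 7.44-fold and Ednrb 2.74-fold lower and Mitf at a log2 difference of 0.05. The fold of S100b rests on low scores of 7, 29, 8, 15 and 3 in KO-labelled tumors. Of 8 sebocyte and keratinocyte markers 2 were measured (sums of 331 to 1067 in KO-labelled and 305 to 433 in WT tumors), Mgst1 being 1.88-fold higher and Krt10 at a log2 difference of -0.09. Fibroblasts and dendritic cells can express several of the 10 genes as well. The part of any of these cell types in the results was not tested.

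**Figure D4:**
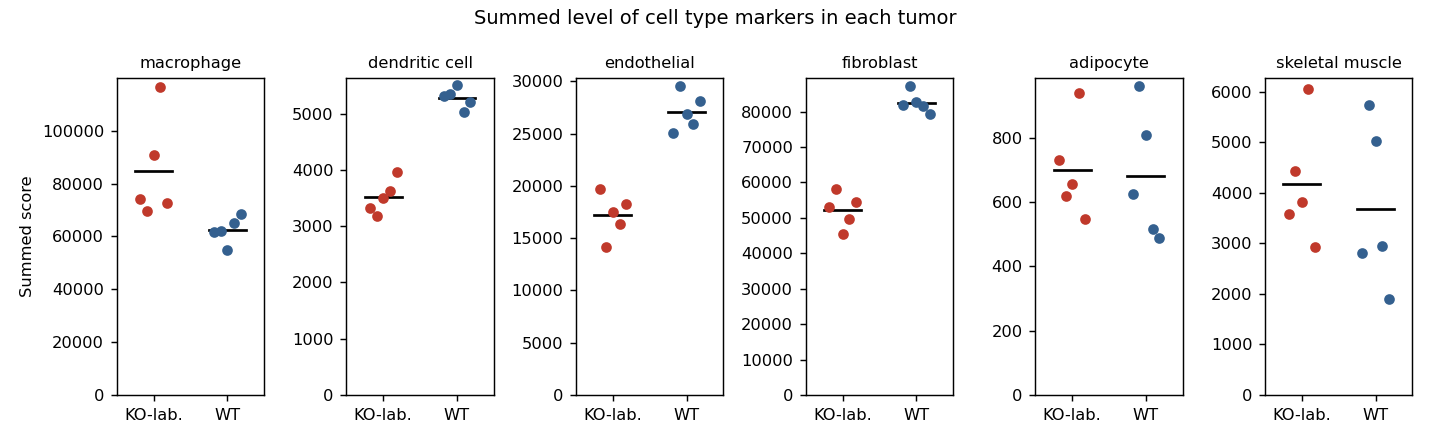
Summed score of the measured markers of 6 cell types (vertical axis from 0, its own in each panel) in each tumor, KO-labelled in red at left and WT in blue at right, with a line at the mean of 5. Macrophage sums lie higher in all KO-labelled tumors, dendritic cell, endothelial and fibroblast sums lie lower in all of them, and adipocyte and muscle sums overlap. The dendritic cell, endothelial and fibroblast sums are mostly those of Fscn1, Aqp1 and Col1a2.

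The wider pathway was described by lists, and targets of the same receptor went in both directions. Of 9 other LXR targets measured from 13, 2 were higher and 4 lower (median log2 difference -0.36). The transglutaminase Tgm2 (1.75-fold) and the phosphodiesterase Smpdl3a (1.86-fold) were higher, and the stearoyl-CoA desaturase Scd2 was 1.69-fold lower. Srebf1, whose DR4 is shown above, was 1546, 1769, 1439, 1385 and 1778 in KO-labelled tumors and 2012, 1885, 2039, 2006 and 2141 in WT tumors, named after its values were seen. It was lower in every KO-labelled tumor (log2 difference -0.36, limma adjusted p = 0.00526). Abca1 and Srebf1, the genes shown with a DR4, were not among those that were higher. Abcg1 and Lpl, which were higher, had no promoter window to search. A link between a DR4 and the direction of a gene was not tested. Of 10 other PPAR targets measured from 14, 3 were higher and 0 lower (5 and 2 at an unadjusted p under 0.05 in limma, median log2 difference 0.22). Angptl4, an inhibitor of lipoprotein lipase, was 1.91-fold higher, with 168, 153, 206, 203 and 162 in KO-labelled tumors and 109, 78, 92, 92 and 92 in WT tumors, and the dehydrogenase Acadl (1.31-fold) and the acyl-CoA synthetase Acsl1 (1.32-fold) were higher as well.

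Of 11 nuclear receptor partners and cofactors measured from 13, 1 was higher, the receptor Ppard (1.42-fold), and 3 were lower, among them Rxra, the partner of both receptors (1.36-fold), and the coactivator Ncoa2 (1.31-fold). Their median log2 difference was -0.23. The other LXR gene, Nr1h2, did not pass (log2 difference 0.16, limma adjusted p = 0.101, named after its values were seen), whereas Nr1h3 was 2.85-fold higher.

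Receptors that take up lipoproteins were split. Of 11 measured from 13, 2 were higher and 3 lower (median log2 difference -0.08, mean 0.04). Msr1, the macrophage scavenger receptor, was 2.14-fold higher, with 4382, 4219, 5469, 5847 and 4093 in KO-labelled tumors and 1988, 2065, 2250, 2533 and 2322 in WT tumors, while the scavenger receptors Colec12 (1.97-fold) and Stab1 (1.91-fold) were lower. Of 5 partners of lipoprotein lipase measured from 6, Angptl4 was higher, Sel1l, which helps the enzyme leave the endoplasmic reticulum, was 1.20-fold lower, and the maturation factor Lmf1 did not pass (log2 difference -0.19, limma adjusted p = 0.0693) though its groups did not overlap. Their median log2 difference was 0.07.

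Of 8 genes of transport and activation measured from 10, 3 were higher and 1 lower (median log2 difference 0.06). Fabp5 was 1642, 1153, 3225, 2457 and 1040 in KO-labelled tumors and 398, 338, 444, 582 and 264 in WT tumors, 4.42-fold higher (limma adjusted p = 0.000161) with the groups far apart. The acyl-CoA synthetases split, Acsl5 1.22-fold higher and Acsl3 1.58-fold lower. Of 11 genes of the lipid droplet measured from 16, 2 were higher and 0 lower (5 and 0 at an unadjusted p under 0.05 in limma, median log2 difference 0.27). These were Soat1, which esterifies cholesterol for storage (1.55-fold), and Hilpda, an inhibitor of droplet lipolysis (2.42-fold), while the lipase Pnpla2 did not pass (log2 difference 0.27, limma adjusted p = 0.0507). Of 9 genes of lysosomal cholesterol release and oxysterols measured from 10, 3 were higher and 0 lower (3 and 1 at an unadjusted p under 0.05 in limma, median log2 difference 0.006). Ch25h, which makes an oxysterol that LXR binds, was 1.96-fold higher, the cholesterol ester hydrolase Nceh1 1.39-fold and the lysosomal carrier Npc2 1.55-fold. In all, 60% of the 10 uptake and efflux genes were higher and 20% lower, against 17.5% and 18.2% of all measured genes. As the 10 genes and the lists were chosen with earlier results of these data known, this contrast is a description with no test.

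**Figure D5:**
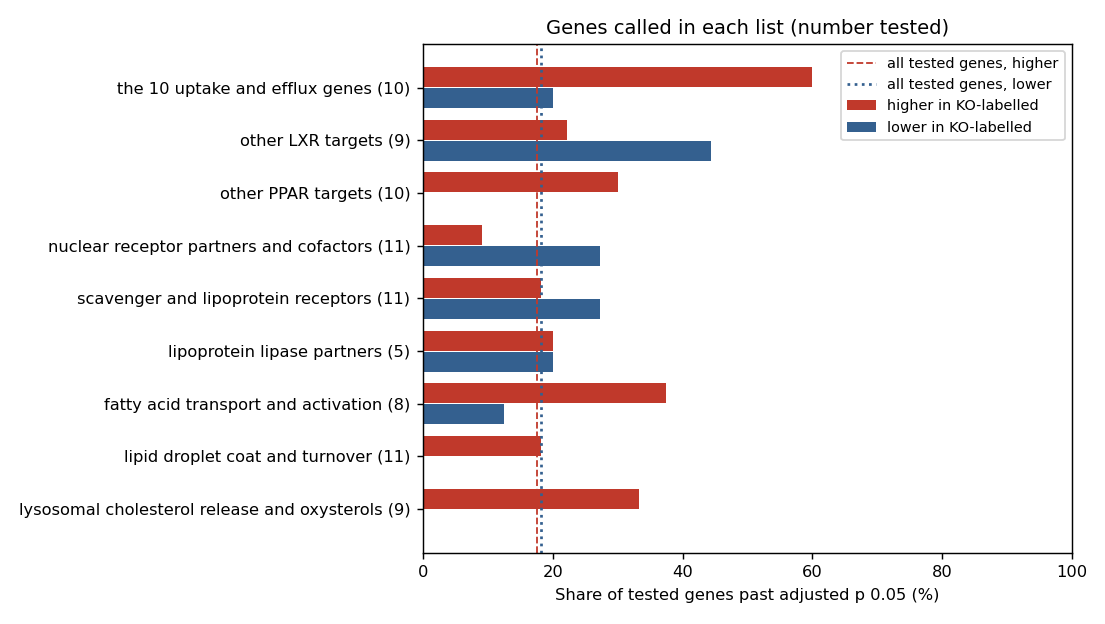
Share of the measured genes of each list (number in brackets) that were higher (red) or lower (blue) in KO-labelled tumors by limma, with dashed and dotted lines for the 17.5% and 18.2% of all measured genes. The 10 uptake and efflux genes reach 60% higher and 20% lower, and the other LXR targets are more often lower (44.4%) than higher (22.2%).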

How the data were processed

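Poly(A) RNA of 10 whole tumors was made into directional libraries and sequenced from 1 end. The paper's methods and the processing notes on the samples name what the authors used: FastQC, STAR (mm10), featureCounts and edgeR through SARTools. For versions, gene annotation and strand setting, the sources used here give nothing. The deposited table holds a score for each gene and tumor, the read count after the authors' normalization, rounded to whole numbers. As scores are not raw counts, no count test was run. Titles number the knockout tumors 1, 2, 3, 5 and 6 and the columns 1 to 5, so columns KO4 and KO5 entered as knockout tumors with no number of their own.

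Genes above 0 in at least 1 tumor (12926 of 24421) were tested on log2(score + 1) with limma 3.58.1 in R 4.3.3, with genotype as the only term. Variances were moderated along a trend on mean level, and p-values were adjusted by Benjamini-Hochberg over all of them (threshold 0.05). Fold changes are on this scale, so the change of a gene at low scores is understated. Single values were also tested by exact permutation over the 252 splits of the tumors. As reads cannot be recovered from rounded scores, no interval for counting error was derived. The limma p-values set the difference between the groups against the spread between tumors, with variances moderated as stated above.

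The 10 genes, the pathway lists and the marker lists were chosen with earlier results of these data known. Some genes stand in more than 1 list (Acsl1, Angptl4, Gpihbp1, Lipe, Plin4 and, listed at 0, Adipoq, Cidec and Plin1), and no macrophage marker does. In each list the 3 genes with the smallest p are named, with all 10 genes and Siah2, except that some items are not reported here. Others are said to have been named after their values were seen. Alternatives were a pseudocount of 10, a mean score of at least 50, scaling to equal totals, to median ratios or to the macrophage markers, no trend, each tumor left out, no columns KO4 and KO5, and the tumors numbered 2 and 3 with and without a replicate block. Coordinates are from GENCODE M21 (mm10) and promoter sequences from RefSeq (GRCm38.p6).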

Additional observations from a re-analysis of the deposited data

Results flagged for a closer look

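Cd36 in WT replicate 3 was 127, against 168 to 188 in the other WT tumors. The gap to the nearest tumor was 0.713 of the range of the group on the log2 scale, just above the limit of 0.71 for 5 values. It was 1 of 20 groups of 5 examined over the 10 genes, and chance flags about 1 in 20. Without WT replicate 3 the log2 difference of Cd36 was 1.13 (limma adjusted p = 0.00783), against 1.22 with it.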

How the results depend on the processing

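Of 200 recomputed results of the 10 genes, 181 kept their side of the threshold, 15 calls were lost and 4 were gained. For each gene they include the exact permutation test, which keeps the main difference and sets an unadjusted p against the threshold of 0.05. The 8 called genes kept their direction in all of their recomputed results. The sign of Abca1 (-0.13 to 0.05 with 1 tumor left out) and of Fabp4 (-0.003 under macrophage scaling) did not hold. Abcg1, Nr1h3, Lpl, Cd36, Plin2 and Mylip kept their calls when any 1 tumor was left out. Leaving out 1 tumor gave 3649 to 5182 called genes, 5 to 7 of the 10 genes higher and 1 to 2 lower, the count of 1 being due to Apoe. Without columns KO4 and KO5, 5 of the 10 genes were higher and 2 lower, Pparg being the one lost. Scaling to the macrophage markers called 9459 genes, as the median of all genes then moves, with 4 of the 10 higher and 3 lower. The labels share the replicate numbers 2 and 3 with certainty. Deviations of same-numbered tumors correlated at 0.035 and 0.050 over genes. These values cannot show whether the tumors share more than a number, such as a litter or a processing day. With the replicate block these 4 tumors gave 3902 called genes, with 6 of the 10 higher and 2 lower, and with no replicate block 2938 called genes, with 4 higher and 2 lower. In these 4 tumors Fabp4 passed with the block (limma adjusted p = 0.000577) and did not without it (0.224), Nr1h3 lost its call without the block (log2 difference 1.10, adjusted p = 0.0690), and Pparg passed in neither (0.516 with the block). With the block, 4 tumors leave almost nothing to estimate the spread of a gene from. Its p-values therefore lean on the variance trend over all genes, and its calls are weak evidence. The depth behind a score could not be worked out for single genes, so the counting error of low scores, such as the 24 to 123 of Pparg, is not known.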
